A study of Homo sapiens with 6 samples.

Results

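The genes described here encode the potassium and sodium channels of SW403, an established human colon adenocarcinoma line, in cells with and without knockdown of IRS2. IRS2 is an adaptor protein that couples the insulin and IGF1 receptors to kinases inside the cell. Members were the rows of the count table whose symbol starts with KCN, is SCN followed by a number and A or B, or names a subunit of the epithelial sodium channel (SCNN1A, SCNN1B, SCNN1D or SCNN1G). The rule found 132 of 26490 rows. Of these, 30 had no read in any library, 62 had reads but a mean under 10 counts over the 6 libraries, and 40 had a mean of at least 10 counts and are reported. The 40 comprise 30 coding potassium channel genes, 7 coding sodium channel genes and 3 noncoding genes of the KCNQ1 locus.

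The 6 libraries are RNA-seq of total RNA. In 3 of them the cells are labelled control (genotype WT), and in the other 3 they are labelled IRS2_knockdown. Both groups were SW403 cells kept for 24 hours in DMEM with fetal bovine serum and given no treatment. The titles and genotype say knockdown, while the descriptions and count columns of these samples carry IRS2KO, and those of the controls carry NS. How IRS2 was lowered, and whether the knockdown cells were 1 clone or a pool, is not given in the sources used here. The replicates of a group were seeded as a triplicate, so p-values measure the spread between such cultures.

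Library totals ran from 11816973 to 12585013 counts in control and from 14329348 to 18114656 in knockdown, so each knockdown library was deeper. IRS2 stood at 32.2 to 34.8 CPM (counts scaled to a fixed library total) in control and at 11.9 to 13 in knockdown, a log2 fold change of -1.39 ± 0.07 (SE). Of 9 colon epithelial markers, KRT8, KRT18, KRT19, CDX2, VIL1 and EPCAM had a mean of at least 10 counts, while KRT20 and CEACAM5 had 0 counts and CDH1 a mean of 2.50. Summed over the list, these markers took 2540 to 2640 CPM in control and 2360 to 2460 in knockdown. Markers of leukocytes, endothelium and muscle summed to at most 3.38 CPM in any library, with PECAM1 and CDH5 at 0. Fibroblast markers summed to 8.55 to 24.9 CPM in control, the top value in control replicate 1, and to 5.63 to 6.51 in knockdown. Neuroendocrine markers summed to 12.0 to 13.5 CPM in control and 7.82 to 9.55 in knockdown, and neuronal markers to 2.88 to 4.13 and 1.88 to 3. The part of these differences in the channel results was not tested.

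Potassium channels let potassium leave the cell and set the resting membrane voltage. In colon epithelium they keep the electrical driving force for chloride secretion and sodium uptake. The voltage-gated (Kv) family opens on depolarisation, the inward rectifiers (Kir) and tandem-pore channels carry resting current, and another group opens on calcium. Voltage-gated sodium channels (Nav) pair a large pore-forming alpha subunit with a beta subunit that is also an adhesion protein. The epithelial sodium channel (ENaC) is the amiloride-sensitive route by which the distal colon absorbs sodium.

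The promoters of the members with the largest rises and falls are shown because they are the start regions of the genes on which the results turn. RefSeq gave a window of 250 bases before to 50 bases after the start (GRCh38.p14) for 26 of the 40 rows, and the sequences below are those of the 2 largest rises and the 2 largest falls with such a window. All read 5′ to 3′ on the gene's own strand. Capitals mark the GC box GGGCGG or its reverse complement, found by an exact search of both strands.
KCNK6, chr19:38319595-38319894, plus strand, rose: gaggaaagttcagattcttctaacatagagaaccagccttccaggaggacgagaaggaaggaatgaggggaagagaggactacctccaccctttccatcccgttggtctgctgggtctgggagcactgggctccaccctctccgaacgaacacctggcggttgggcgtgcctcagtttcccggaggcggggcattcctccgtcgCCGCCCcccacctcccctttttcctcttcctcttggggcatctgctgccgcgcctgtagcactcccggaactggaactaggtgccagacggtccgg
SCN4B, chr11:118145384-118145683, minus strand, rose: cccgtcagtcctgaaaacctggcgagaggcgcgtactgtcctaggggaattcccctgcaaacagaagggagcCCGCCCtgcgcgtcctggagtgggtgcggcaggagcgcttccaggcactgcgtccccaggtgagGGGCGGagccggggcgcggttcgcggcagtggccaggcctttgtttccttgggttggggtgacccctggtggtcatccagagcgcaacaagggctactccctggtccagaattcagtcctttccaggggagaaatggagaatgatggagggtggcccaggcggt
SCN9A, chr2:166375895-166376194, minus strand, fell: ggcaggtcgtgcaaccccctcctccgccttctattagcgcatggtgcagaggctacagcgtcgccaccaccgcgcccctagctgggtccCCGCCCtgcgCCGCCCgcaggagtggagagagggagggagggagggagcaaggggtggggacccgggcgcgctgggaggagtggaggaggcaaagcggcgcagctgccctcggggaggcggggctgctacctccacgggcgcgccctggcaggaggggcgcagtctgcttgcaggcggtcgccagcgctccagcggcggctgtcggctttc
KCNQ5, chr6:72621814-72622113, plus strand, fell: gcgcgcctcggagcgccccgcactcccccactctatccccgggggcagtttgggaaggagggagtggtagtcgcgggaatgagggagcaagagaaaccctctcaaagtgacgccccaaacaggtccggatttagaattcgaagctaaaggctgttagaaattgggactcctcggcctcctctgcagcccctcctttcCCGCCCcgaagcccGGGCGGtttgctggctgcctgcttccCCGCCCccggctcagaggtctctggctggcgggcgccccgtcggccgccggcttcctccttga

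Each of these windows holds at least 1 GC box, the rising and the falling genes alike. Over the 26 windows, 21 held a GC box, against 44.6% of the 27305 promoters in the table. The 26 belong to rows with a mean of at least 10 counts, while the 27305 promoters were not selected by expression. The part of expression in any difference from all promoters was not tested. By call, the GC box was in 4 of 4 windows of members that rose, 4 of 5 of members that fell and 13 of 17 of the others. The number of CG pairs in a window had a median of 21.5 in members that rose, 28.0 in members that fell and 25 in the rest, beside 14.0 over all promoters. The TATA motif TATAAA was in 2 of the 26 windows, those of KCNK1 and KCNJ14, against 12.0% of all promoters. The forkhead motif TGTTTAC (3.41% of promoters) and the cyclic AMP response element TGACGTCA (1.98%) were in none of the 26. A match describes letters only and marks no binding site.

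Of the 40 channel genes, 14 passed the threshold of edgeR's quasi-likelihood test, an adjusted p of 0.05, 4 higher and 10 lower in knockdown. The genes that rose were KCNK6, SCN4B, KCNK5 and KCNJ5. Among those that fell were SCN9A, KCNQ5, KCNK1, KCNC1, KCNMB4, KCNJ11, SCNN1A, KCNJ4 and KCNJ12. In such bulk RNA, fewer cells that express a gene and less RNA per cell cannot be told apart. The 14 are 35.0% of the reported rows, and 38.5% of the 13832 genes tested passed the same threshold, so the share of channel genes called was near that of all genes. By direction, 10.0% of the channel rows rose beside 19.3% of all genes, and 25% fell beside 19.2%. The median log2 fold change was -0.01 over the 40 rows and -0.00391 over all tested genes. The median size of the change, without sign, was 0.222 in channel rows and 0.145 over all genes. Among all tested genes it was 0.395 at a mean under 50 counts and 0.162 at 50 to 500 counts. Of the 40 channel rows 21 had a mean under 50 counts, against 2252 of the 13832 tested genes. The part of count level in the difference was not tested.

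The falls lay mostly among weakly expressed channels. Of the 21 channel rows with a mean under 50 counts, 9 fell and 1, SCN4B, rose. Among all tested genes in that range, 24.6% fell and 4.04% rose, and the median log2 fold change was -0.19, against -0.29 for the 21 channel rows. Of the 18 channel rows with a mean of 50 to 500 counts, 3 rose (KCNK6, KCNK5 and KCNJ5) and 1 fell (KCNJ12). In that range 15.1% of all genes rose and 18.6% fell. The row above 500 counts, KCNN4, did not pass.

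Changes of at least 2-fold past the threshold were 1 rise, of KCNK6, and 6 falls, of SCN9A, KCNQ5, KCNK1, KCNC1, KCNMB4 and KCNJ11. Over all tested genes such rises made up 0.586% and such falls 4.32%. All 6 falls were in rows with a mean under 50 counts, where 19.0% of all tested genes fell at least 2-fold. For SCN9A, KCNQ5, KCNK1, KCNC1 and KCNJ11, the control libraries alone all reached the filter's minimum of 0.743 CPM, so these rows entered the test through the group in which they were high. Control and knockdown libraries were fully separated in 15 of the 40 rows, 37.5%, beside 48.4% of all tested genes. These 15 were the 14 called genes and KCNAB3.

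**Figure D1:**
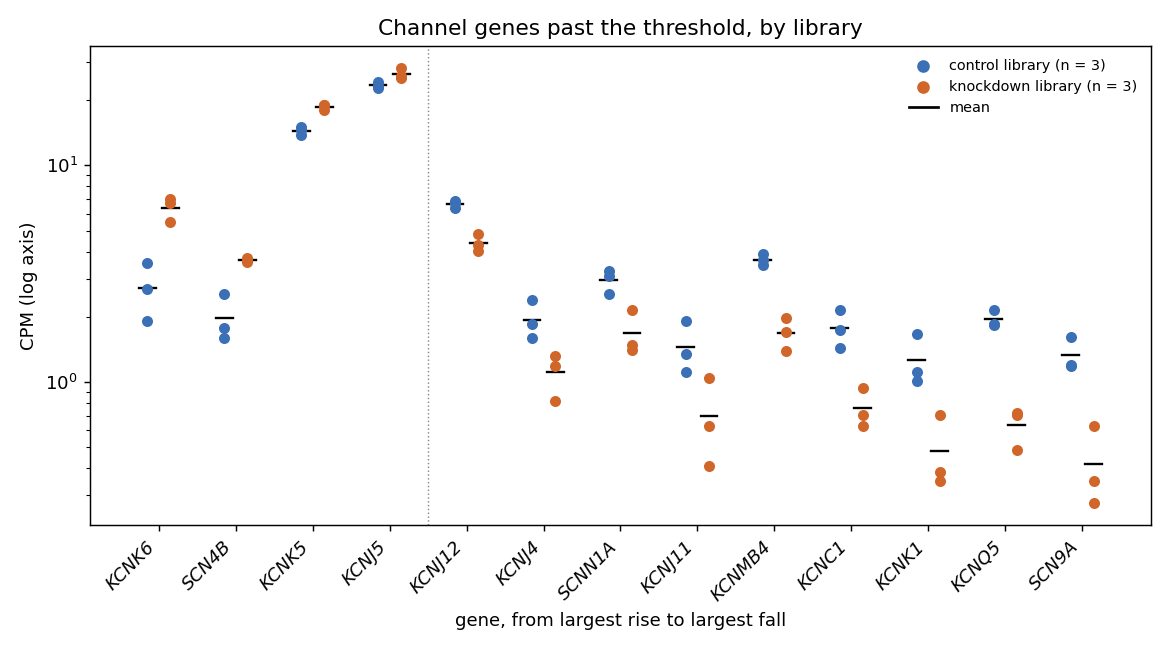
CPM on a log axis for 13 of the 14 channel genes past the threshold, with 1 point per library (3 control, 3 knockdown) and a bar at each group mean. Genes run from the largest rise to the largest fall, and within each gene the groups do not overlap. KCNK5 and KCNJ5 lie above 13 CPM in every library, while SCN9A, KCNK1, KCNQ5 and KCNC1 lie under 1 CPM in every knockdown library.

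Tandem-pore potassium channels moved in both directions. KCNK6 encodes TWIK-2, a weak inward-rectifying background channel found in many epithelia and on endolysosomal membranes. It stood at 2.70, 1.91 and 3.55 CPM in control and at 6.98, 5.51 and 6.68 CPM in knockdown. The lowest knockdown library was above the highest control library, and the control values were the more scattered relative to their mean. KCNK6 rose 2.40-fold (log2 fold change 1.26 ± 0.19 SE, edgeR adjusted p 3.11e-05), the largest rise among the 40 rows.

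KCNK5 encodes TASK-2, an alkaline-activated channel known from kidney and gut epithelium. Its levels were 14.6, 15 and 13.8 CPM in control and 18.0, 19.1 and 18.9 CPM in knockdown. All knockdown libraries were higher, and the libraries of a group lay close together. The rise was 1.32-fold (log2 fold change 0.40 ± 0.08 SE, edgeR adjusted p 0.000478).

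KCNK1, which encodes TWIK-1, the closest relative of TWIK-2, went the other way. Its counts were 21, 14 and 12 in control and 5, 12 and 7 in the deeper knockdown libraries, or 1.67, 1.12 and 1.02 CPM against 0.349, 0.703 and 0.386 CPM. Knockdown libraries were all lower, on few reads. The fall had a log2 fold change of -1.35 ± 0.37 (SE; edgeR adjusted p 0.0074), and without control replicate 1, its highest library, it was -1.10 with an adjusted p of 0.0575. KCNK13, a halothane-inhibited channel, and KCNK15, a relative of the TASK channels, averaged under 1.5 CPM in both groups and did not pass the threshold.

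Among inward rectifiers, 3 of 6 genes fell and 1 rose, beside 19.2% and 19.3% of all tested genes. Under 50 counts, where KCNJ4 and KCNJ11 lie, 24.6% of all tested genes fell. A family of so few rows is not read against these shares. KCNJ5 encodes a subunit of the G-protein-gated channel that is opened by acetylcholine in the heart. It had 23.3, 22.8 and 24.2 CPM in control and 25.3, 28.2 and 26 CPM in knockdown. The groups did not overlap, but the gap between the nearest libraries was small. Its rise was 1.16-fold (log2 fold change 0.21 ± 0.07 SE, edgeR adjusted p 0.0169), and it no longer passed without control replicate 2 (adjusted p 0.0597) or without knockdown replicate 2 (0.0998).

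KCNJ12 and KCNJ4 encode strong inward rectifiers of the Kir2 subfamily, which hold the resting voltage of muscle and nerve cells. KCNJ12 was at 6.83, 6.69 and 6.35 CPM in control and at 4.05, 4.8 and 4.31 CPM in knockdown. Each knockdown library lay below each control library. The log2 fold change of KCNJ12 was -0.56 ± 0.14 (SE), a 1.47-fold fall, with an edgeR adjusted p of 0.00361. KCNJ18, a near-identical copy of KCNJ12, was listed with 1 count in control replicate 1 and 3 in knockdown replicate 3, and how reads shared by the pair were assigned is not stated, so the KCNJ12 level is uncertain.

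KCNJ4 was at 2.38, 1.59 and 1.86 CPM in control and at 1.19, 0.820 and 1.32 CPM in knockdown. Its control libraries were all higher, the nearest ones by little. KCNJ4 had a log2 fold change of -0.77 ± 0.28 (SE; edgeR adjusted p 0.0332). An antisense RNA without a symbol covers 12.6% of its exon bases. When 1 library was left out, the adjusted p passed 0.05 for 4 of the 6 libraries: 0.162 without control replicate 1, 0.0604 without control replicate 3, 0.0585 without knockdown replicate 1 and 0.153 without knockdown replicate 2.

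KCNJ11 encodes the pore of the ATP-sensitive potassium channel, which closes when the cell's ATP rises and couples glucose to insulin release in the pancreas. It had 24, 14 and 16 counts in control and 9, 7 and 19 in knockdown, which is 1.91, 1.11 and 1.35 CPM against 0.628, 0.410 and 1.05 CPM. The highest knockdown library nearly reached the lowest control library. KCNJ11 had a log2 fold change of -1.01 ± 0.36 (SE; edgeR adjusted p 0.0303), and it was lost without control replicate 1 (-0.77, adjusted p 0.166), control replicate 3 (0.0517), knockdown replicate 1 (0.0797) or knockdown replicate 2 (-0.73, 0.151). Its regulatory partners ABCC8 and ABCC9, the sulfonylurea receptors, averaged 7 and 5.33 counts and were not tested. KCNJ8, the other pore subunit of this channel type, and KCNJ14 did not pass and had group means of 7.45 and 7.77 CPM, and of 3.52 and 3.63 CPM, in control and knockdown. Of the KCNJ14 exon bases, 23.5% lie on those of an opposite-strand RNA without a symbol, and 6.67% on those of GRWD1 on the same strand. GRWD1 averaged 175 CPM in control and 173 CPM in knockdown, so the KCNJ14 level is uncertain.

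**Figure D2:**
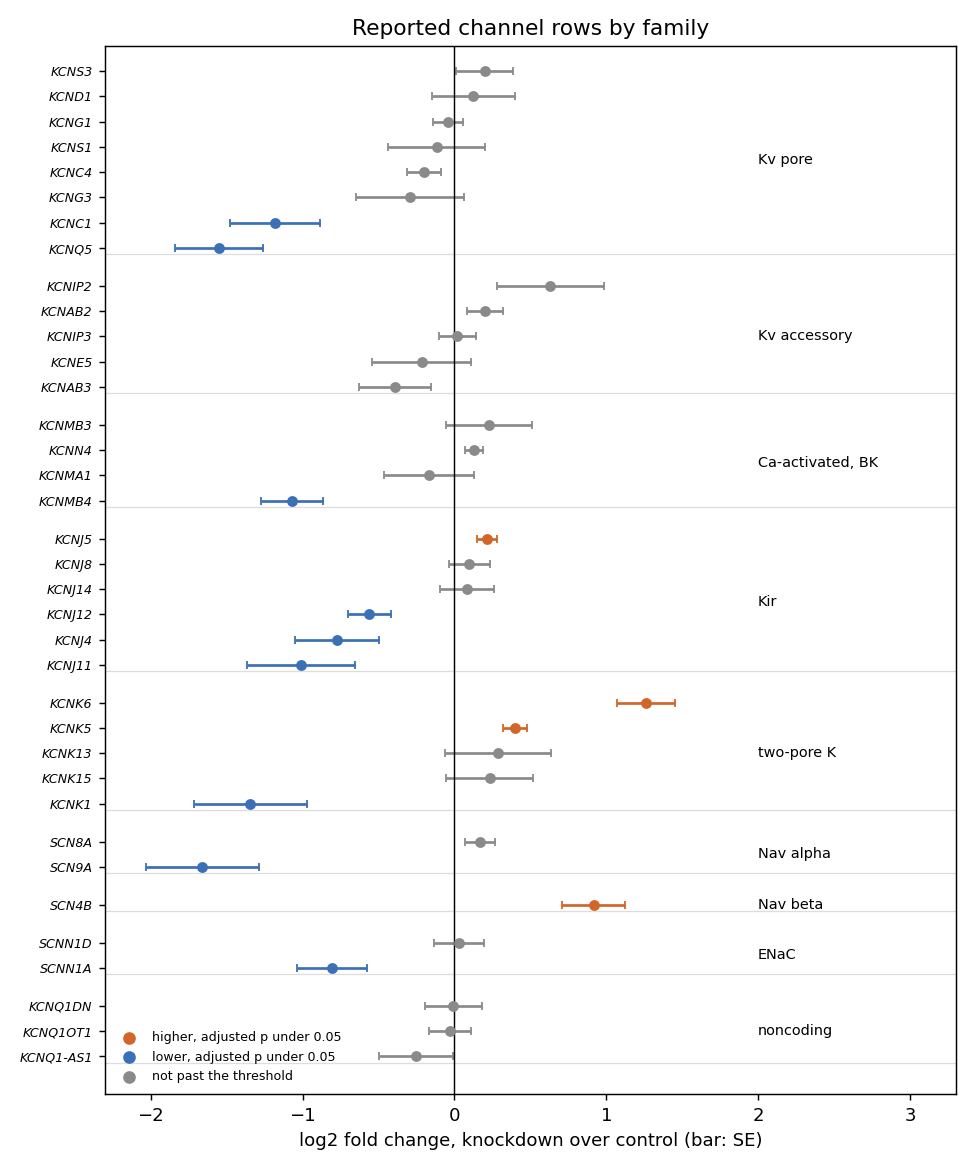
Log2 fold change of knockdown over control for 36 of the 40 reported channel rows, grouped by family, with bars of 1 SE and colours for the test result. The 4 rises are in the inward rectifier (Kir), tandem-pore and sodium beta groups. The 5 accessory subunits of Kv channels and the 3 noncoding rows hold no called gene.

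Of the 10 pore-forming genes of the voltage-gated potassium family, KCNQ5 and KCNC1 fell and the others did not pass. Over all tested genes 19.2% fell. KCNQ5 encodes a subunit of the slow M-type current. It had 27, 23 and 22 counts in control and 7, 12 and 13 counts in knockdown, or 2.15, 1.83 and 1.86 CPM against 0.489, 0.703 and 0.718 CPM. The lowest control value was more than 2 times the highest knockdown value. KCNQ5-AS1, an antisense RNA over 5.73% of its exon bases, had at most 1 count in any library. KCNQ5 fell 2.93-fold (log2 fold change -1.55 ± 0.29 SE, edgeR adjusted p 0.000296).

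KCNC1 encodes a fast-closing channel that lets neurons fire at high rates. It was at 1.75, 2.15 and 1.44 CPM in control and at 0.628, 0.703 and 0.938 CPM in knockdown. All knockdown libraries were below all control libraries. The fall was 2.27-fold (log2 fold change -1.18 ± 0.30 SE, edgeR adjusted p 0.00376). Its relative KCNC4 was more abundant per length and did not pass. It went from 12.8 ± 1.55 to 11 ± 1.48 CPM (SD, n = 3), with a log2 fold change of -0.20 ± 0.11 and an edgeR adjusted p of 0.17.

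The electrically silent subunit gene KCNG1, whose product modifies Kv2 channels, was at 12.4, 14.0 and 16.0 CPM in control and at 14.2, 13.8 and 12.3 CPM in knockdown. Its groups overlapped (log2 fold change -0.04 ± 0.10 SE, edgeR adjusted p 0.773). KCNS3, KCND1, KCNG3 and KCNS1 averaged under 4 CPM in each group, and none passed.

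None of the 5 accessory genes of Kv channels passed the threshold, which 38.5% of all tested genes passed. The KCNAB genes encode cytoplasmic beta subunits related to aldo-keto reductases, the KCNIP genes encode calcium-binding partners, and KCNE5 encodes a single-span subunit. KCNAB3 was at 2.23, 2.23 and 2.37 CPM in control and at 1.54, 2.11 and 1.44 CPM in knockdown. Its groups did not overlap, yet the log2 fold change of -0.39 ± 0.24 (SE) had an edgeR adjusted p of 0.207. KCNIP2 was at 0.715, 0.398 and 1.02 CPM in control and 1.19, 1.05 and 0.994 CPM in knockdown. Its log2 fold change of 0.63 ± 0.35 (SE; edgeR adjusted p 0.171) was the farthest from 0 among the 26 rows that did not pass. For KCNIP2 the knockdown libraries alone all reached the filter's minimum of 0.743 CPM. This row thus entered the test through the group in which it was high. KCNAB2 averaged 8.94 and 10.1 CPM and KCNIP3 7.91 and 7.88 CPM in control and knockdown.

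Of the calcium-activated group, the beta subunit gene KCNMB4 fell and the pore genes did not pass. KCNMB4 encodes the beta-4 subunit of the large-conductance (BK) channel, which slows its gating and is best known from brain. Its levels were 3.89, 3.66 and 3.47 CPM in control and 1.40, 1.70 and 1.99 CPM in knockdown. The lowest control library was well above the highest knockdown library. KCNMB4 fell 2.10-fold (log2 fold change -1.07 ± 0.21 SE, edgeR adjusted p 0.000399).

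KCNMA1, the BK pore itself, was at 1.19, 1.35 and 1.27 CPM in control and 0.837, 0.996 and 1.44 CPM in knockdown, and its groups overlapped. KCNN4 encodes the intermediate-conductance channel of the basolateral membrane of colon epithelium, where it sustains chloride secretion. It was at 34.9, 32.5 and 38.3 CPM in control and at 37.3, 36.8 and 38.8 CPM in knockdown. The groups overlapped because of control replicate 3. The log2 fold change of KCNN4 was 0.13 ± 0.06 (SE; edgeR adjusted p 0.107), and it was 0.19 with an adjusted p of 0.0263 without control replicate 3. KCNMB3 averaged 1.41 and 1.62 CPM. Of its exon bases in the GENCODE annotation, 38.0% lie on those of PIK3CA on the opposite strand, and the labelled library kit is named without a strand-specific step, so reads of the pair may not be separable.

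Per transcript length, KCNN4 stood first among the channel genes by a wide margin. Levels between genes were compared as CPM per kb of the canonical transcript, for 32 coding genes with a length in the annotation. In control KCNN4 was at 18.0 CPM per kb, followed by KCNG1 at 6.46, KCNJ5 at 3.86, KCNK5 at 3.83, KCNJ8 at 3.28 and KCNC4 at 3.09. KCNJ5 and KCNK5 differed by less than the spread of either. In knockdown KCNN4 was at 19.2, KCNG1 at 6.15, KCNK5 at 4.94 and KCNJ5 at 4.37 CPM per kb. KCNK6 went from 0.476 to 1.12 CPM per kb, and SCN9A was lowest in both groups, at 0.137 and 0.0429. The summed level of all 132 rows was 261.4 to 270.5 CPM in control and 258.5 to 279.3 CPM in knockdown, so the total overlapped between groups.

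**Figure D3:**
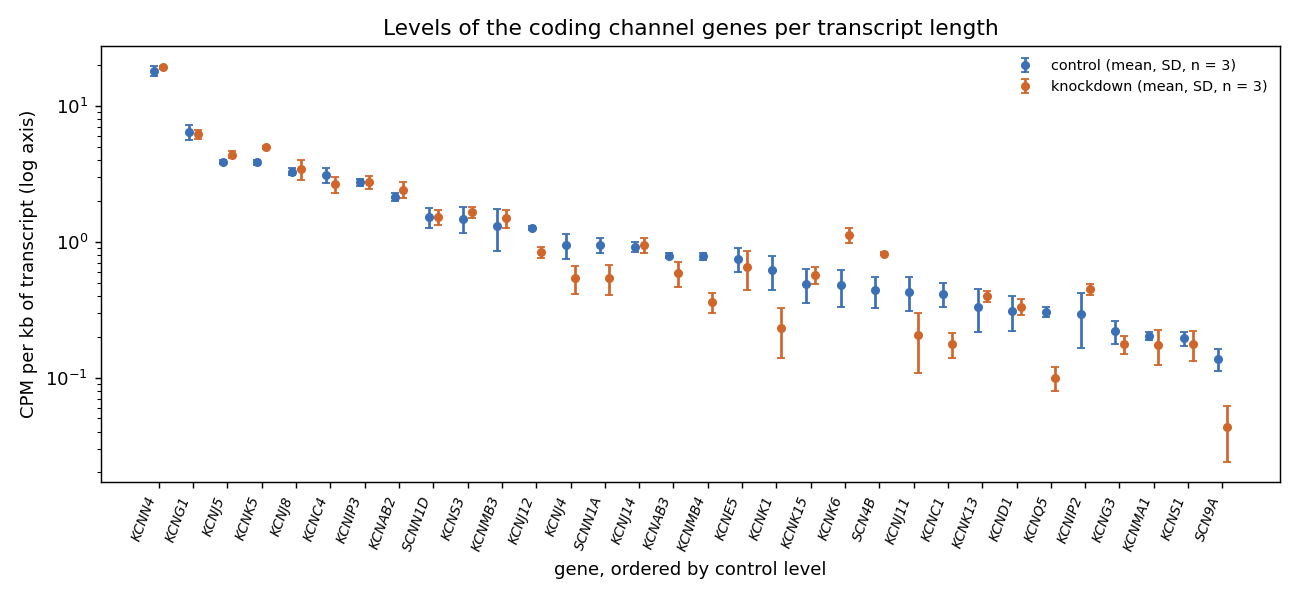
Level of 32 coding channel genes in CPM per kb of canonical transcript on a log axis, ordered by the control mean, with SD over 3 libraries. KCNN4 lies highest at 18.0 in control and 19.2 in knockdown, and SCN9A lowest at 0.137 and 0.0429.

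Sodium channel genes showed 1 rise and 3 falls among 7 rows, too few to read against the 19.3% and 19.2% of all tested genes. Under 50 counts, where SCN9A and SCNN1A lie, 24.6% of all tested genes fell. The voltage-gated alpha subunits described here are SCN8A and SCN9A.

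SCN8A, an alpha subunit of nerve fibres, was at 13.7, 15.2 and 14.3 CPM in control and at 17.9, 16.6 and 13.4 CPM in knockdown. Knockdown replicate 3 was the lowest of all 6 libraries. SCN8A had a log2 fold change of 0.17 ± 0.10 (SE; edgeR adjusted p 0.206), and without that library it was 0.28 with an adjusted p of 0.0201.

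SCN9A, the alpha subunit of pain-sensing neurons, had 15, 15 and 19 counts in control and 9, 6 and 5 in knockdown. In CPM this was 1.19, 1.19 and 1.61 against 0.628, 0.352 and 0.276, with no overlap. SCN9A fell 3.16-fold (log2 fold change -1.66 ± 0.37 SE, edgeR adjusted p 0.00151), the largest fall among the 40 rows. SCN1A-AS1, an antisense RNA that covers 11.4% of the SCN9A exon bases, had at most 1 count in any library.

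Of the beta subunits, SCN4B encodes beta-4, which supplies the blocking particle behind resurgent sodium current. It was at 2.54, 1.59 and 1.78 CPM in control and at 3.63, 3.57 and 3.75 CPM in knockdown. Every knockdown library was above every control library, and the knockdown libraries were nearly equal. SCN4B rose 1.89-fold (log2 fold change 0.92 ± 0.21 SE, edgeR adjusted p 0.00171).

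For the epithelial sodium channel, the alpha subunit gene fell and the partners of the classical colonic channel were at or near 0. SCNN1A, the alpha subunit, was at 3.10, 3.26 and 2.54 CPM in control and at 2.16, 1.41 and 1.49 CPM in knockdown. All control libraries were above all knockdown libraries. SCNN1A fell 1.75-fold (log2 fold change -0.80 ± 0.23 SE, edgeR adjusted p 0.00913). Of its exon bases, 7.18% lie on those of the oppositely transcribed LTBR, which was at 88.3 ± 4.77 CPM in the control group and 94 ± 2.06 CPM in the knockdown group (SD, n = 3). LTBR had a log2 fold change of 0.12 ± 0.04 (SE; edgeR adjusted p 0.0394). The library kit is named without a strand-specific step, so reads of SCNN1A and LTBR may not be separable, and the SCNN1A level is uncertain. SCNN1D, the delta subunit, overlapped between groups at 4.61 ± 0.776 and 4.65 ± 0.594 CPM (SD, n = 3). SCNN1B had 2 counts and SCNN1G 0 counts over the 6 libraries.

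The 3 noncoding rows lie at the imprinted KCNQ1 locus on chromosome 11. KCNQ1OT1, the long antisense RNA of the locus, was at 13.7, 14.6 and 16.1 CPM in control and at 18.9, 13.3 and 11.1 CPM in knockdown. The knockdown libraries enclosed all control values (log2 fold change -0.03 ± 0.14 SE, edgeR adjusted p 0.894). KCNQ1DN and KCNQ1-AS1 did not pass either. KCNQ1 itself, the pore that secretory epithelia use on their basolateral side, had a mean of 7.5 counts, and KCNE3, its partner in colon, had 1 count in all.

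Below the limit of 10 counts, 1 row, KCNT2, still entered the test. Its control libraries alone all reached the filter's minimum of 0.743 CPM, so it entered through the group in which it was high. KCNT2, which encodes a sodium-activated potassium channel and was chosen after its values were seen, had 13, 11 and 15 counts in control and 3, 6 and 6 in knockdown (log2 fold change -1.74, edgeR adjusted p 0.00177). KCNK10, a mechanosensitive tandem-pore channel gene also chosen after its values were seen, had 4, 3 and 3 counts in control and 15, 11 and 11 in knockdown. It was left out by the expression filter, as were the 60 other rows with reads under this limit. In the fit without that filter, 4 of these 61 untested rows passed, 1 higher and 3 lower. Over all genes 5722 passed in that fit. The share among all rows that the filter left out was not computed, so the 4 have no background beside them. The higher row was KCNK10 (log2 fold change 1.49, edgeR adjusted p 0.0224). The lower rows included KCNB2 (-1.92, adjusted p 0.0102) and KCNN1 (-2.06, adjusted p 0.031), chosen after their values were seen. KCNB2 had 7, 8 and 9 counts in control and 1, 3 and 4 in knockdown. For KCNN1 the counts were 7, 7 and 3 against 1, 1 and 3. Adjusted p-values of this fit cannot be set beside those of the main fit. For IRS2 the edgeR adjusted p was 3.65e-66 without the filter and 3.12e-11 in the main fit.

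Genes that work with these channels were read from 5 lists, whose called shares are set beside the 38.5% of all tested genes that passed (19.3% higher, 19.2% lower). The lists were chosen with earlier results of these data known, so a share above or below 38.5% is no test of a list. In the sodium pump, which builds the gradients that the channels discharge, the beta subunit genes ATP1B1 and ATP1B3 did not pass the threshold. ATP1B1 was at 22.3 ± 1.76 and 22.4 ± 0.705 CPM in control and knockdown, and ATP1B3 at 199 ± 3.33 and 202 ± 1.40 CPM (SD, n = 3). Of the 8 tested genes of the 18 on that list, 0 rose and 1 fell, or 12.5% called beside 38.5% of all genes. The gene that fell was ATP12A, the non-gastric proton-potassium pump of colon (log2 fold change -1.19 ± 0.34 SE, edgeR adjusted p 0.00838; 0.0684 without control replicate 1).

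Of the 16 tested genes of 23 exchangers and cotransporters, 3 rose and 1 fell, so 25% were called against 38.5% over all genes. SLC12A7, a potassium-chloride cotransporter, rose with a log2 fold change of 0.46 ± 0.05 (SE), and SLC12A8 with 0.38 ± 0.12. The adjusted p of SLC12A8 was 0.015, and it was 0.0587 without control replicate 1, 0.0553 without control replicate 3 and 0.071 without knockdown replicate 2. SLC8A1, the plasma membrane sodium-calcium exchanger, fell from 2.98 ± 0.310 to 0.711 ± 0.210 CPM (SD, n = 3), with a log2 fold change of -2.03 ± 0.27 (SE).

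Among 20 tested kinases, ligases, proteases and transcription factors of 24 that regulate channels, 7 rose and 5 fell, a called share of 60% with 38.5% over all genes. WNK1, a chloride-sensing kinase, rose with a log2 fold change of 0.36 ± 0.05 (SE). RCOR1 and REST, a corepressor and the factor it serves in silencing neuronal genes, rose with 0.36 ± 0.04 and 0.27 ± 0.05. REST went from 39.3 ± 0.813 to 46.6 ± 1.79 CPM (SD, n = 3). The glucocorticoid receptor gene NR3C1 fell with a log2 fold change of -0.76 ± 0.09 (SE), its target TSC22D3 (GILZ) with -0.86 ± 0.10, and the protease inhibitor gene SPINT2 with -0.40 ± 0.08. The mineralocorticoid receptor gene NR3C2, chosen after its values were seen, had 20, 18 and 10 counts in control and 6, 4 and 9 in knockdown (log2 fold change -1.70 ± 0.39 SE, edgeR adjusted p 0.00181). The aldosterone-responsive kinase gene SGK1 was at 11.6 ± 0.0969 and 12.4 ± 0.661 CPM (SD, n = 3) and did not pass.

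Of the 17 tested chloride and anion channel genes of 26, 7 rose and 4 fell, 64.7% called beside 38.5% of all genes. Subunit genes of the volume-regulated anion channel moved in both directions. LRRC8A, the obligatory subunit, and LRRC8D rose with log2 fold changes of 0.26 ± 0.05 and 0.41 ± 0.06 (SE), while LRRC8C fell with -0.55 ± 0.10. LRRC8B, chosen after its values were seen, fell with -0.40 ± 0.14 (edgeR adjusted p 0.0278), and LRRC8E did not pass (adjusted p 0.373). CLCN3, an endosomal exchanger, rose with 0.19 ± 0.04, and ANO8 and the calcium-activated chloride channel gene ANO1 fell with -0.49 ± 0.11 and -0.18 ± 0.05. CFTR, the chief chloride channel of the colon, averaged 0.167 counts. Of 14 tested scaffold and associated genes of 25, 3 passed, or 21.4% beside 38.5% of all genes. In this list 2 rose, DLG1 (0.26 ± 0.05) and the endolysosomal channel gene TPCN1 (0.27 ± 0.06), and 1 fell, ANK3 (-0.79 ± 0.14), which encodes the ankyrin that anchors Nav and KCNQ channels in neurons.

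The median log2 fold change was -0.05 for the pump list, 0.04 for the exchangers, 0.09 for the regulators, 0.19 for the anion channels and -0.01 for the scaffolds. The edgeR adjusted p of LRRC8B was 0.0278, and that of the other partner genes named as rising or falling was at most 0.015. For ATP12A, SLC8A1 and NR3C2, the control libraries alone all reached the filter's minimum of 0.743 CPM. These 3 rows thus entered the test through the group in which they were high.

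**Figure D4:**
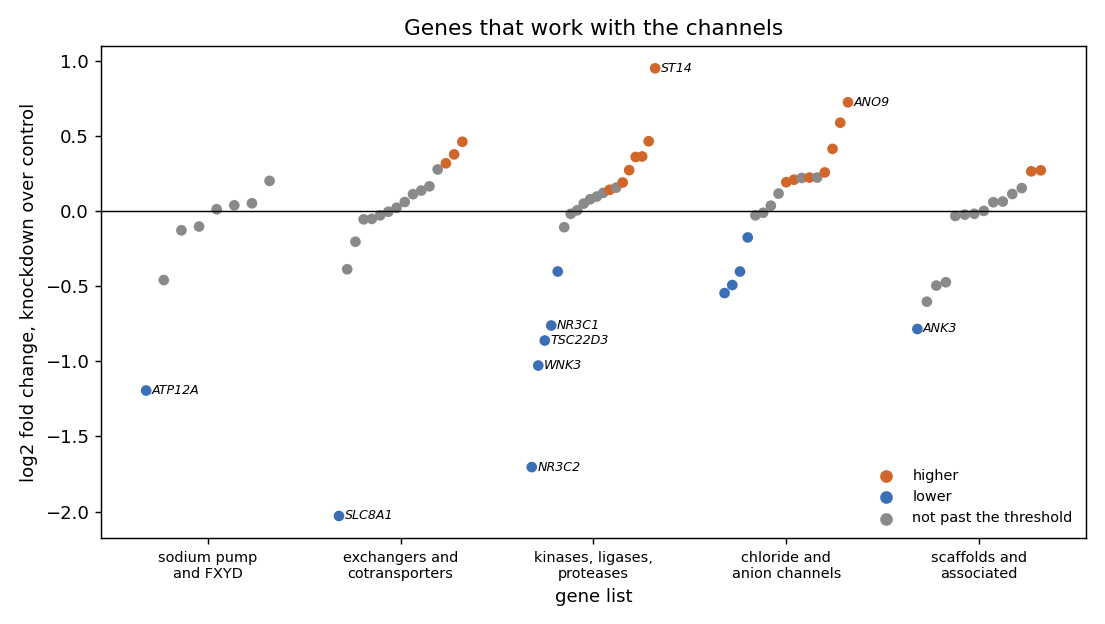
Log2 fold change of knockdown over control for the tested genes of 5 lists of proteins that work with the channels, ordered within each list, with colours for the test result and names on called genes of at least 0.6 in size. The falls of SLC8A1 (-2.03) and NR3C2 (-1.70) are the largest, and ATP12A is the called gene of the pump list.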

How the data were processed

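The authors deposited whole-number counts per gene symbol and a normalized signal, which is the counts of each library divided by 1 constant. Per the submitters' processing notes, STAR 2.6.1a, Salmon, DESeq2 and hg19 were used, without stated roles. Annotation and strand setting are not given in the sources used here. Column names matched the sample descriptions, and 0 per-sample columns went unused.

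Counts were tested over all genes with edgeR 4.0.16 (R 4.3.3): TMM factors, filterByExpr, the quasi-likelihood F-test on group alone, Benjamini-Hochberg adjustment over 13832 genes, threshold 0.05. The SE is the size of the log2 fold change over the square root of F. An exact test of 3 against 3 cannot go below 0.1. Replicate pairs differed by more than counting error (chi-square per degree of freedom 1.41 to 2.78). Lengths and exon overlaps came from GENCODE 44 on GRCh37, promoters from RefSeq on GRCh38.p14.

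Members and lists were chosen with earlier results of these data known. Named genes were IRS2, all called members, the 8 members with the most counts, and in each partner list the 3 called genes with the smallest p per direction. KCNAB3, KCNIP2, KCNT2, KCNK10, KCNB2, KCNN1, NR3C2 and LRRC8B were chosen after their values were seen, and other genes are given as values only. Alternatives used DESeq2 1.42.0, limma 3.58.1, other scalings, filters and thinning. The fitting was tested on simulated data. Some genes are counted but not reported by name here.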

Additional observations from a re-analysis of the deposited data

How the results depend on the processing

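The number of channel genes past the threshold was 14 (4 higher, 10 lower), and it was unchanged with DESeq2 size factors, upper-quartile factors, library size alone, no low-count filter, limma voom or the replicate block. It was 10 with the Wald test of DESeq2 and at an adjusted p of 0.01. With a mean of at least 50 counts it was 4, of which 1 was lower, since fewer rows were tested. Leaving out 1 library in turn gave 10 to 15 channel genes, 3 to 6 higher and 6 to 9 lower, and 4319 to 5256 of all genes. The fewest lower calls, 6, came without control replicate 1, where KCNJ11, KCNJ4 and KCNK1 were among those lost. Under the Wald test KCNJ5 (adjusted p 0.0924), KCNJ11 (0.105), KCNJ4 (0.134), ATP12A (0.0537) and SLC12A8 (0.0743) were among those lost. KCNJ4 was also lost after thinning to the smallest library (0.0574). With limma on log2 of the normalized values plus 1, 13 channel genes passed. The cause was not tested.

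Correcting each library for transcript length and GC, an alternative chosen after the data were seen, gave 15 channel genes, with KCNN4 added (0.16, adjusted p 0.0293). It covered 97.5% of the tested channel rows. KCNQ1OT1, which passed in no fit, changed sign without control replicate 3 (0.0344), knockdown replicate 2 (0.0222) or knockdown replicate 3 (0.13), and with the length and GC correction (0.0656). Leaving out 1 library, it ran from -0.25 to 0.13. KCNG1 changed sign without control replicate 3 (0.0548) or knockdown replicate 3 (0.0183), and ran from -0.13 to 0.0548 when 1 library was left out. Of 730 values for 44 named genes, 694 kept their direction and side of the threshold. For IRS2 the alternatives gave log2 fold changes of -1.45 to -1.35.

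With the replicate block, 14 channel genes and 4862 of all genes passed, against 14 and 5329 without it. Deviations of same-numbered libraries correlated at 0.031, 0.0078 and -0.095. The largest correlations with a library of another number were 0.017, 0.078 and 0.055. No pairing was seen, but 3 libraries per group cannot tell whether same-numbered libraries shared a batch. Depth limits the rows with a mean under 50 counts most, where SEs reached 0.37.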
